A study of Homo sapiens with 28 samples.

Results

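The regions described here carried H3K27me3 in the marrow of every WT mouse and in that of at most 1 of 5 DKOITD mice. They numbered 333 of 38360 autosomal regions (0.868%), or 7.59% of the 4387 regions that all 3 WT mice held. Each region is a stretch of genome under the merged H3K27me3 peaks of 8 mice, and a mouse held it when its own peaks covered at least 10% of its length. H3K27me3 therefore chose the regions, and its values are given below as a description without a test. H3K27ac, measured in separate libraries of the same mice, was not used to choose them.

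Chromatin immunoprecipitation sequencing of both marks came from bone marrow of 5 DKOITD mice and 3 WT mice, all C57BL/6, whose ages are not stated in the sources used here. DKOITD mice (DKOITD48, DKOITD52, DKOITD53e, DKOITD83 and DKOITD185) were fl/fl for Ezh2 and for Runx1, Cre/+ at Rag1 and ITD/+ at Flt3, an internal tandem duplication. WT mice (WT1 to WT3) had the same floxed alleles, but were +/+ at Rag1 and at Flt3. The Cre sits at Rag1, a gene of lymphoid progenitors, so marrow cells outside that lineage may keep intact Ezh2 and Runx1. The series title names a lympho-myeloid leukaemia, but no label gives the disease state of a mouse. DKOITD marrow was used whole and WT marrow after selection on CD117 (Kit) beads, so genotype and cell preparation cannot be told apart in any value below. In bulk marrow, fewer cells with a mark and less of the mark per cell cannot be told apart either.

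H3K27me3 is written by Polycomb repressive complex 2, whose catalytic subunit is EZH2 or its relative EZH1, and lies over silenced genes. H3K27ac sits on the same lysine at active promoters and enhancers, so a single histone tail carries one or the other. In blood progenitors, H3K27me3 covers developmental regulators that blood never uses and also genes of mature lineages that are switched on later.

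The libraries differed in depth and far more in yield. H3K27me3 libraries held 3343831 to 6411696 fragments in DKOITD mice and 2766339 to 3994483 in WT mice, and H3K27ac libraries 9435546 to 11458360 and 6515614 to 7072997. Of all regions, 24042 were held by DKOITD185, 13761 by DKOITD52, 1922 by DKOITD83, 1743 by DKOITD48 and 1062 by DKOITD53e, against 13279 by WT1, 9270 by WT3 and 5990 by WT2. With so few peaks in DKOITD48, DKOITD53e and DKOITD83, the choice of regions rested on DKOITD52 and DKOITD185. Of 2078 regions held by all WT and exactly 2 DKOITD mice, 2074 were held by that pair. Without DKOITD52 the rule gave 2410 regions, without DKOITD185 it gave 2413, and without WT2 it gave 1027.

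H3K27ac at the gene Ptprc, which encodes the pan-leukocyte antigen CD45, was present in all 8 mice, and at the T-cell gene Cd3e in none. At Kit it was found in 0 of 5 DKOITD and 3 of 3 WT mice. Of 21 stem and progenitor genes, 1 to 4 carried H3K27ac at an end in DKOITD mice and 7 to 11 in WT mice. The corresponding numbers were 1 to 2 and 5 to 7 of 16 erythroid genes, 6 to 16 and 17 to 24 of 27 granulocyte and monocyte genes, and 9 to 17 and 6 to 12 of 24 dendritic cell and macrophage genes. Although Cd3e had none, they were 1 to 3 and 2 to 4 of 25 T and NK lineage genes. For 19 B lineage genes they were 2 to 4 and 2 to 10, and for 9 MHC class II genes 7 to 9 and 3 to 4. The part of these differences in the results below was not tested.

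The regions were short and their H3K27me3 in WT marrow was weak. Their median length was 2044 bp (range 298 to 8583), against 3734 bp for regions held by all WT and exactly 2 DKOITD mice and 8498 bp for the 799 regions held in all 8 mice. The median coverage by H3K27me3 peaks was 4.55% in DKOITD52 and 0% in the other 4 DKOITD mice, against 75.9% in WT1, 40.9% in WT2 and 65.9% in WT3. The authors' −log10 q for the strongest WT peak of a region had a median of 2.04 in WT1, 1.72 in WT2 and 2.35 in WT3. In regions held in all 8 mice these medians were 4.07, 3.28 and 4.93. A peak of −log10 q at or above 5 was present at 4 of the 333 regions in WT1, 2 in WT2 and 8 in WT3, and the medians of the 333 were the lowest of the sets compared. No DKOITD mouse held 123 of the regions, DKOITD52 alone held 155 and DKOITD185 alone held 55, and 116 had not a single base under H3K27me3 in any DKOITD mouse.

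**Figure D1:**
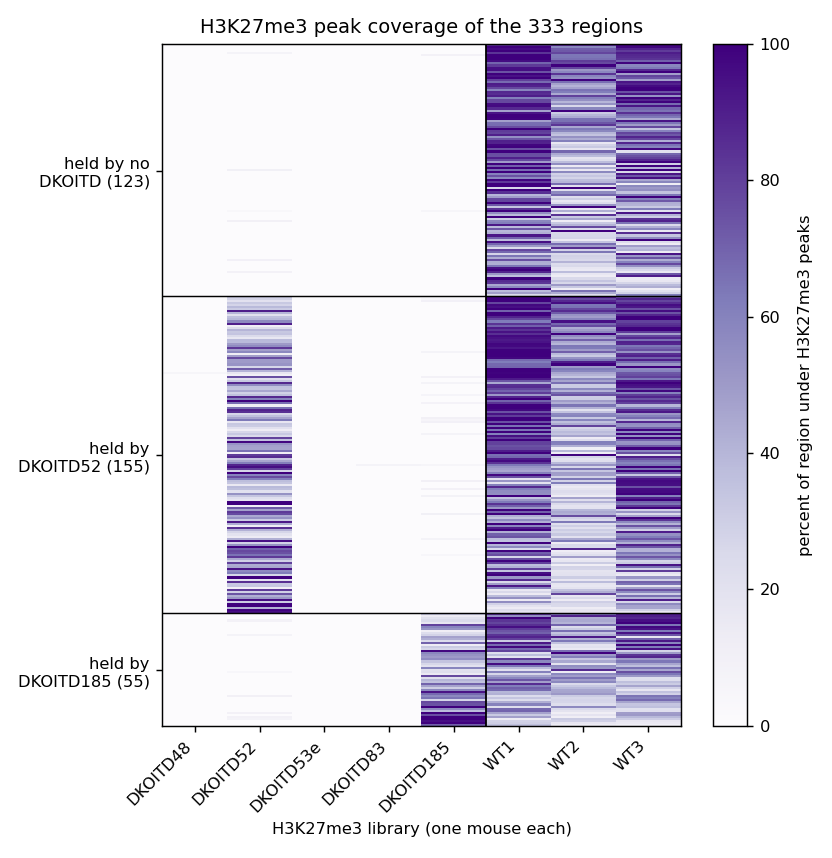
Percent of each of the 333 regions (rows) under H3K27me3 peaks in each library (columns), DKOITD mice left of WT mice and rows grouped by the DKOITD mouse that held them. The WT columns are filled and the DKOITD columns are empty apart from the 155 regions of DKOITD52 and the 55 of DKOITD185, as the rule requires.

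Values near the limit were close to each other. The second-highest DKOITD coverage was 9.84% at Lmx1b and 9.32% at Clcf1 just inside the limit, and 10.0% at C1qtnf1 and 10.3% at Casz1 just outside. The lowest WT coverage was 10.6% at Pomc, inside, and 9.64% at Shroom3, outside.

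The regions lay often at genes, but less often at gene ends than the other sets that all WT mice held. A protein-coding gene end, here 1 kb either side of the start or the end of the gene, was touched by 179 regions (53.8%), a gene body alone by 69 (20.7%), and neither by 85 (25.5%). A gene end was touched by 61.5% of regions held in all WT and exactly 2 DKOITD mice, and by 78.3% of those held in all WT and 3 or 4. The share was 86.6% for regions held in all 8 mice and 15.6% for all regions. The median distance to a region held in all 8 mice was 561730 bp, and 8 of the 333 lay within 10 kb of one. This distance was not measured for other regions, and touching peaks were merged, so direct contact was not possible. The table of genes gives no strand, so a start was not told from a 3′ end. In all, 195 of 20661 autosomal protein-coding genes (0.944%) had one of the regions at an end. Chromosome 11 held the most, 38 regions, or 9.92% of the 383 that all WT mice held there, and chromosome 19 had the highest such share (11.1% of 144).

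Regions lay at the ends of a few genes in some of the gene lists and of none in others, against 0.944% of all autosomal protein-coding genes. Interferon regulatory factors, which drive interferon responses and myeloid differentiation, had 2 of 9 genes (Irf5 and Irf8). Dendritic cell and macrophage genes had 3 of 24 (Klf4, Klf2 and Flt3). MAP kinase regulators had 2 of 20 (Dusp5 and Map4k4), axon guidance receptors 2 of 24 (Nrp1 and Plxnb2), actin and myosin genes 2 of 24 (Tpm4 and Capn2), and retinoic acid genes 1 of 16 (Rxra). Costimulatory genes had 1 of 15 (Cd40), and stem and progenitor genes 1 of 21 (again Flt3). No gene had a region at an end in the lists of MHC class II (9 genes), granulocyte and monocyte (27), B lineage (19), T and NK lineage (25), erythroid (16), Polycomb (26) or Notch pathway genes (16). In these lists H3K27me3 lay at an end in all 3 WT mice at 0, 2, 3, 6, 3, 5 and 10 genes, in that order. It did so at 4 of the 9 interferon regulatory factors and 8 of the 24 dendritic cell and macrophage genes. The numbers were 5 of 20 MAP kinase regulators, 12 of 24 axon guidance receptors, 8 of 24 actin and myosin genes and 8 of 16 retinoic acid genes. For costimulatory genes the number was 2 of 15, for stem and progenitor genes 8 of 21, and for all genes 3089 of 20661. Genes without H3K27me3 there in WT marrow had little room to be counted, so the lists are not directly comparable. Developmental transcription factors, the classical Polycomb targets, had 0 of 54 at an end, with 1 region inside Pax3. All 54 had H3K27me3 at an end in all 3 WT mice. These lists were chosen with earlier results of the same data known, so the counts are a description.

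H3K27ac was more frequent at these regions in DKOITD marrow. It covered at least 200 bp of 38.1% of the regions in DKOITD48, 32.7% in DKOITD52, 23.4% in DKOITD53e, 25.5% in DKOITD83 and 40.8% in DKOITD185. The WT values were 18.0% in WT1, 15.0% in WT2 and 12.9% in WT3. Each DKOITD mouse lay above each WT mouse, with means of 32.1% ± 7.61 (SD, n = 5) in DKOITD and 15.3% ± 2.57 (SD, n = 3) in WT marrow, a difference of 16.8 percentage points. DKOITD53e and DKOITD83 were the lowest of the 5 and also had the least H3K27ac, 6.92 and 7.29 Mb over the autosomes, against 16.4 to 29.2 Mb in WT mice.

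In percentage points the difference was smaller in the other regions that all WT mice held, which as whole sets had less H3K27ac in both groups. In regions held by all WT and exactly 2 DKOITD mice, H3K27ac was present at 8.67% ± 2.60 in DKOITD and 4.46% ± 0.964 in WT marrow. There too each DKOITD mouse lay above each WT mouse (6.26% to 12.1% against 3.37% to 5.20%). In regions held in all 8 mice H3K27ac was present at 5.66% ± 1.67 in DKOITD and 5.13% ± 1.02 in WT marrow (SD, n = 5 and 3 throughout). The gap was of like size among regions of 1 to 4 kb, where the shares were 31.9% ± 7.54 in DKOITD and 14.0% ± 2.59 in WT marrow over 292 of the regions, and 9.61% ± 2.97 and 5.13% ± 0.712 over 1149 regions held by exactly 2 DKOITD mice. At that length the 32 regions held in all 8 mice had H3K27ac at 21.9% ± 3.13 in DKOITD and 17.7% ± 4.77 in WT marrow, and 282 regions held by 3 or 4 DKOITD mice at 8.23% ± 2.97 and 7.80% ± 0.709. The DKOITD minus WT difference was thus 17.9 points for the 292 regions, and 4.47, 0.43 and 4.17 points for regions held by 2, by 3 or 4, and by all 5 DKOITD mice. At gene ends within that length the DKOITD share reached 47.3% ± 9.78 and the WT share 21.1% ± 3.23 over 161 regions. The remaining 179 regions (53.8%) had no H3K27ac in any mouse.

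H3K27ac in DKOITD marrow lay partly over the very bases that carried H3K27me3 in WT marrow. Within the regions, 202 kb lay under H3K27me3 peaks in all 3 WT mice. Of these bases, 29.9% were under H3K27ac in DKOITD48, 29.9% in DKOITD52, 15.7% in DKOITD53e, 19.998% in DKOITD83 and 37.2% in DKOITD185, against 10.1% in WT1, 8.34% in WT2 and 8.08% in WT3. At least 4 DKOITD mice had H3K27ac over 39.7 kb of them (19.6%), with 200 bp or more in 58 regions. For regions held by all WT and exactly 2 DKOITD mice the shares of such bases were 1.82% to 3.79% in DKOITD mice and 0.766% to 1.28% in WT mice. For regions held in all 8 mice they were 1.37% ± 0.184 in DKOITD (SD, n = 5) and 1.32% ± 0.0695 in WT marrow (SD, n = 3). The WT shares show that both marks were also called over the same bases of WT marrow, at 200 bp or more in 40 regions for at least 1 WT mouse.

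**Figure D2:**
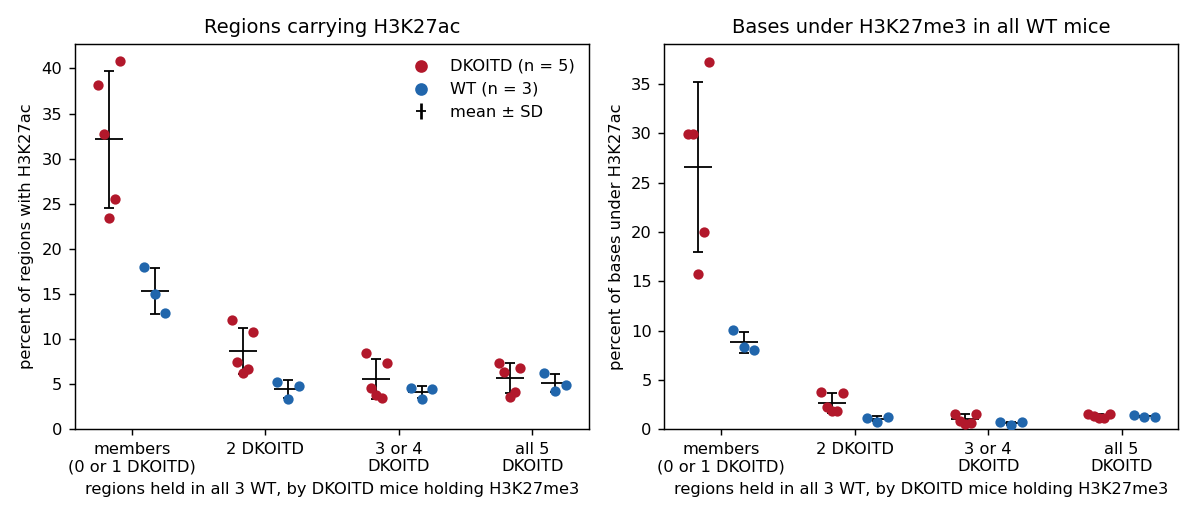
Left, percent of regions with H3K27ac in each mouse, and right, percent of the bases under H3K27me3 in all WT mice that were under H3K27ac, for regions grouped by how many DKOITD mice held H3K27me3; points are mice and bars mean ± SD. The 5 DKOITD mice lie above the 3 WT mice for the 333 regions (left, 23.4% to 40.8% against 12.9% to 18.0%). They also do so for regions held by exactly 2 DKOITD mice (left, 6.26% to 12.1% against 3.37% to 5.20%). The groups overlap where 3 or 4, or all 5, DKOITD mice held the region.

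At single regions, H3K27ac rose at 37 of the 333 in DKOITD marrow by limma on log2(bp covered + 200) with Benjamini-Hochberg adjustment over all 1649 regions with at least 200 bp of H3K27ac in 1 or more mice, and fell at none. Over all regions tested, 8.13% were called higher and 6.73% lower, or 0.349% of all 38360 regions higher, against 11.1% of these 333. Only 153 of the 333 could be tested, and at an unadjusted p under 0.05 there were 55 higher and 2 lower. Of the 2078 regions held by all WT and exactly 2 DKOITD mice, 351 could be tested, and 37 were called higher (1.78% of the 2078) and 9 lower. Of the 799 regions held in all 8 mice, 5 were called higher and 9 lower. Differences are on that log2 scale throughout, and where WT mice were at 0 their size depends on the 200 bp added. Such regions passed the 200 bp filter through DKOITD mice alone. Their WT values had no spread, so their SE and limma p do not rest on a measured WT spread.

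The 37 regions were mostly at gene ends (30), with 3 in a gene body and 4 in neither. No WT mouse had a base of H3K27ac in 23 of them. Of all 333 regions, 22 (6.61%) carried H3K27ac in 5 of 5 DKOITD and 0 of 3 WT mice, a pattern that 0.219% of all regions showed, and the opposite pattern was found in 0 of the 333 and 0.188% of all. Among the 4387 regions that all WT mice held, the 333 included, these shares were 1.28% and 0.433%. H3K27ac rose at 18 of the 123 regions that no DKOITD mouse held, at 16 of the 155 held by DKOITD52 and at 3 of the 55 held by DKOITD185. Among the 155, DKOITD52 had H3K27ac at 32.9%, against 41.3% in DKOITD48, 22.6% in DKOITD53e, 24.5% in DKOITD83 and 44.5% in DKOITD185. DKOITD52 was likewise neither lowest nor highest of the 5 among the 123 that no DKOITD mouse held (39.0%, range 29.3% to 46.3%). Among the 55, DKOITD185 had H3K27ac at 18.2%, the same as DKOITD48 and DKOITD52, against 12.7% in DKOITD53e and DKOITD83.

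Both interferon regulatory factor regions rose. Irf5 encodes a factor that activates inflammatory cytokine genes downstream of Toll-like receptors, and its region (mm10 chr6:29525867-29528954, at the gene end) had 2.79, 2.79, 1.80, 2.75 and 3.09 kb of H3K27ac in DKOITD48, DKOITD52, DKOITD53e, DKOITD83 and DKOITD185, against 0 kb in all 3 WT mice. Its H3K27me3 covered 0% in every DKOITD mouse, against 83.5%, 86.3% and 98.0% in WT1, WT2 and WT3. The groups did not overlap, the difference was 3.81 ± 0.17 (SE), the largest of the 37, and limma gave an adjusted p of 6.27e-06. With 0 kb in all 3 WT mice, this SE and limma p rest on no measured WT spread, and the region passed the filter through DKOITD mice alone. The same holds for the SE and limma p of each region below with 0 kb in every WT mouse. Exact permutation gave p = 0.0357, the smallest that 56 assignments can give. At Irf5, all 2443 bp under H3K27me3 in the 3 WT mice were under H3K27ac in at least 4 DKOITD mice. Such overlap reached 200 bp or more at 30 of the 37 called regions, but its extent varied. It was 860 of 860 bp at the window of Dennd6b and Plxnb2 and 560 of 1865 bp at Irf8. In the body of Rara it was 373 of 3122 bp, and at the window of Ccdc40 and Tbc1d16 0 of 152 bp.

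Irf8, which directs monocyte and dendritic cell development, had 1.87, 2.08, 0.297, 1.07 and 1.88 kb of H3K27ac at its end (chr8:120734922-120737741) in DKOITD48, DKOITD52, DKOITD53e, DKOITD83 and DKOITD185, against 0 kb in the 3 WT mice. DKOITD53e was the lowest of the 5 and was still above every WT mouse (difference 2.85 ± 0.50 SE, limma adjusted p = 0.00615). The call was lost with H3K27ac peaks of −log10 q at least 5 (limma adjusted p = 0.264), with equal numbers of peaks (0.116) and on the linear scale (0.0594). H3K27me3 was at 0% in all DKOITD mice, against 100%, 66.1% and 83.4% in WT1, WT2 and WT3.

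Of the dendritic cell and macrophage genes, Klf4 was called, and Klf2 and Flt3 were not. Klf4, a zinc finger factor that promotes monocyte differentiation, had 3.97, 4.23, 3.28, 3.17 and 4.08 kb of H3K27ac in DKOITD48, DKOITD52, DKOITD53e, DKOITD83 and DKOITD185, against 0.861, 0.890 and 1.03 kb in WT1, WT2 and WT3 (chr4:55530267-55534643). The DKOITD peaks were wider than the WT peaks, which lay over the middle of the region, a difference of 1.80 ± 0.12 (SE, limma adjusted p = 4.94e-05). Its H3K27me3 did not vanish in every DKOITD mouse: coverage was 8.66% in DKOITD52 and 24.0% in DKOITD185, against 44.7% to 94.7% in the WT mice.

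Flt3, the receptor kinase that carries the duplication in DKOITD mice, had 1.46, 1.09, 0.649, 1.05 and 2.60 kb in DKOITD48, DKOITD52, DKOITD53e, DKOITD83 and DKOITD185, against 0.631, 0.505 and 0 kb in the WT mice. The groups did not overlap (exact permutation p = 0.0357, the smallest that 56 assignments can give), but the limma adjusted p was 0.102. The called regions at Irf5, Irf8, Rnd3, Nrp1 and Apba1 had the same exact permutation p. With H3K27ac peaks of −log10 q at least 5 the Flt3 region was called (difference 2.86, limma adjusted p = 0.000985). At Klf2, a related factor of quiescence, DKOITD mice had 1.15 to 1.99 kb and WT mice 1.00 to 1.90 kb, with an adjusted p of 0.355. Cd40, a costimulatory receptor of antigen-presenting cells, had the longest region without H3K27me3 in any DKOITD mouse above the limit, but H3K27ac in 1 mouse, DKOITD185 (0.505 kb).

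Of the actin and myosin genes with a region at an end, 1 of 2 was called higher. Capn2, a calcium-dependent protease that remodels adhesions, had 0.690 kb ± 0.184 in DKOITD mice and 0 kb in WT mice (SD, n = 5 and 3; limma adjusted p = 0.000267). That call was lost with peaks of −log10 q at least 5 (limma adjusted p = 0.0933). The tropomyosin gene Tpm4 had 1.70 kb ± 0.211 in DKOITD and 1.37 kb ± 0.361 in WT mice (limma adjusted p = 0.308), though with peaks of −log10 q at least 5 it was called higher (1.40e-06).

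Rnd3 came next after Irf5 among the largest rises. It had 1.66, 2.10, 0.482, 1.72 and 2.10 kb of H3K27ac in DKOITD48, DKOITD52, DKOITD53e, DKOITD83 and DKOITD185, against 0 kb in the WT mice (difference 3.06 ± 0.40 SE, limma adjusted p = 0.00124). The call at Rnd3 was lost with peaks of −log10 q at least 5 (limma adjusted p = 0.529) and with equal numbers of peaks (0.0935).

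Both guidance receptor genes with a region at an end had a called rise. Nrp1, a co-receptor for semaphorins and vascular endothelial growth factor, had 1.31, 1.20, 0.754, 1.14 and 1.17 kb of H3K27ac in DKOITD48, DKOITD52, DKOITD53e, DKOITD83 and DKOITD185, against 0 kb in the WT mice (difference 2.70 ± 0.17 SE, limma adjusted p = 3.93e-05, or 0.0767 with equal numbers of peaks). With peaks of −log10 q at least 5, no mouse had 200 bp of H3K27ac there, so the Nrp1 region was not tested. The semaphorin receptor gene Plxnb2 shares a window with Dennd6b, and that region had 0.770 to 2.54 kb in DKOITD mice and 0 kb in WT mice (adjusted p = 0.000425, or 0.264 with peaks of −log10 q at least 5). A second region in the body of Plxnb2 had H3K27ac in DKOITD48 and DKOITD185 alone (0.493 and 0.606 kb).

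Retinoic acid and MAP kinase genes were less uniform. The region in the body of Rara, the retinoic acid receptor alpha gene, had 1.80, 2.06, 0.705, 1.34 and 2.49 kb in DKOITD48, DKOITD52, DKOITD53e, DKOITD83 and DKOITD185, against 0.454, 0 and 0.430 kb in the WT mice (difference 2.02 ± 0.50 SE, limma adjusted p = 0.0318). This call was lost without any one of DKOITD48, DKOITD52, DKOITD83, DKOITD185 or WT2 (limma adjusted p = 0.0566 to 0.0739). It was also lost with H3K27ac peaks of −log10 q at least 5. A neighbouring region at the end of Gm46294, also in Rara, did not pass (adjusted p = 0.0596), but passed without DKOITD83 (0.0225) or WT1 (0.0377). At Rxra, its partner receptor, DKOITD mice had 0 to 0.915 kb and WT mice 0 to 1.05 kb (adjusted p = 0.605). Dusp5, a phosphatase that inactivates ERK, had 0.674 kb ± 0.172 in DKOITD and 0.255 kb ± 0.238 in WT mice (adjusted p = 0.105), and at Map4k4, a kinase upstream of JNK, the means were 1.34 ± 0.810 and 1.33 ± 0.337 kb.

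**Figure D3:**
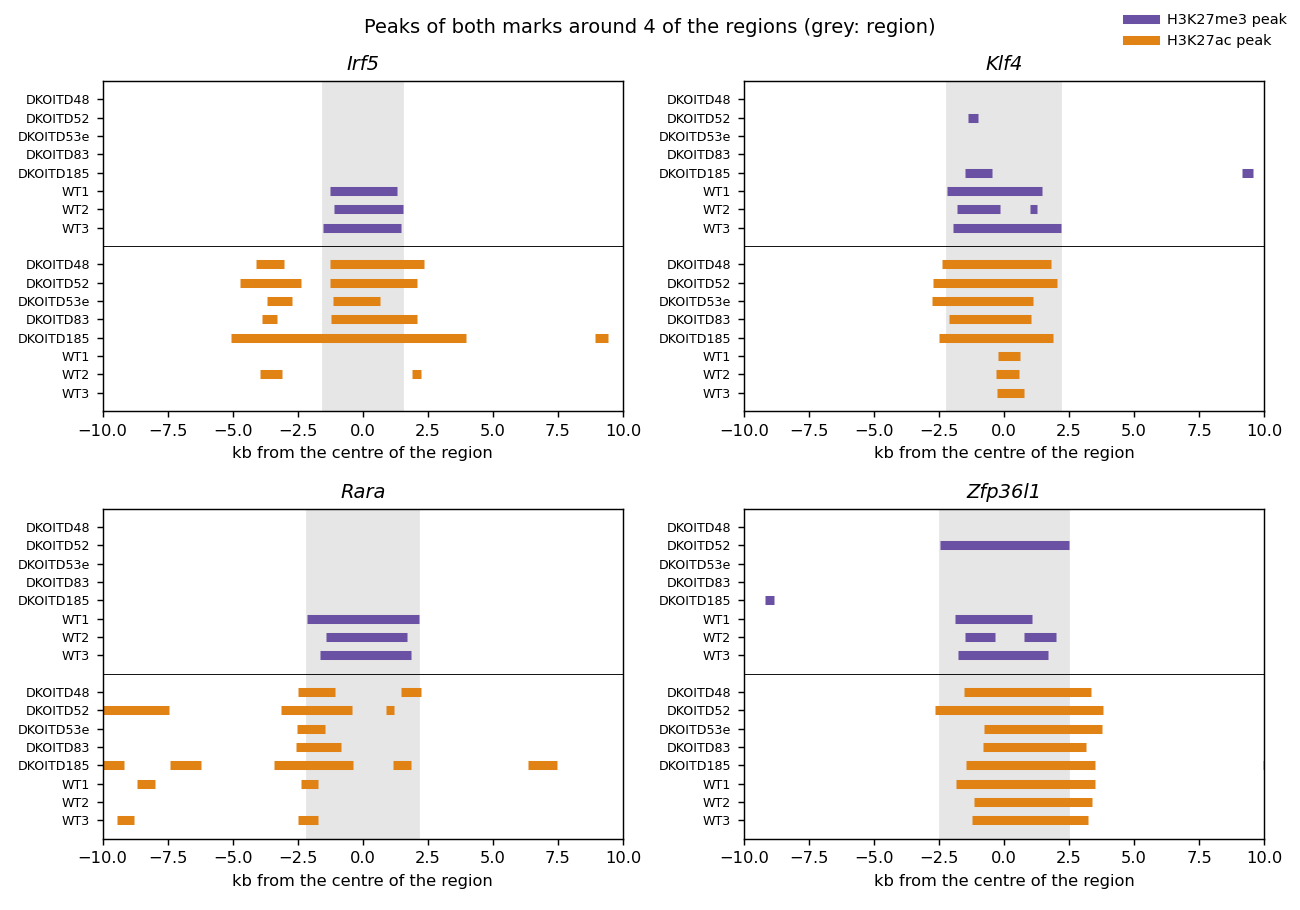
Peaks of H3K27me3 (purple) and H3K27ac (orange) in each mouse around the regions at Irf5, Klf4, Rara and Zfp36l1, DKOITD mice above WT mice, by distance in kb from the centre of the region (grey). At Irf5 the DKOITD mice have H3K27ac and no H3K27me3 in the region and WT mice the reverse, at Klf4 H3K27ac is wider in DKOITD mice, and at Zfp36l1 H3K27ac lies in all 8 mice.

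Other regions with the largest rises belonged to genes of varied function. Stxbp6, a regulator of vesicle fusion, rose by 2.99 (adjusted p = 0.000141), Apba1, a synaptic adaptor gene, by 2.73 (6.91e-06), and Chn2, a Rac GTPase-activating protein, by 2.62 (0.000164), each with 0 kb in the WT mice. Apba1 was the most even, at 1.13 kb ± 0.126 in the 5 DKOITD mice. Ccdc102a, the shared window of Ccdc40 and Tbc1d16, the shared window of Folr2 and Inppl1, and Trim36 made up the 12 largest, with differences of 2.37 to 2.75 and adjusted p of 0.000116 to 0.0217. Trim36, a ubiquitin ligase gene, was the only one of the 12 with any WT signal, 0.629 kb in WT1, and its adjusted p was 0.0512 without WT3. The window of Folr2 and Inppl1 lost its call when any WT mouse was left out (limma adjusted p = 0.0709 to 0.0742). With peaks of −log10 q at least 5, Stxbp6, Chn2, Ccdc102a, Trim36 and both shared windows lost their calls (limma adjusted p = 0.103 to 0.529).

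**Figure D4:**
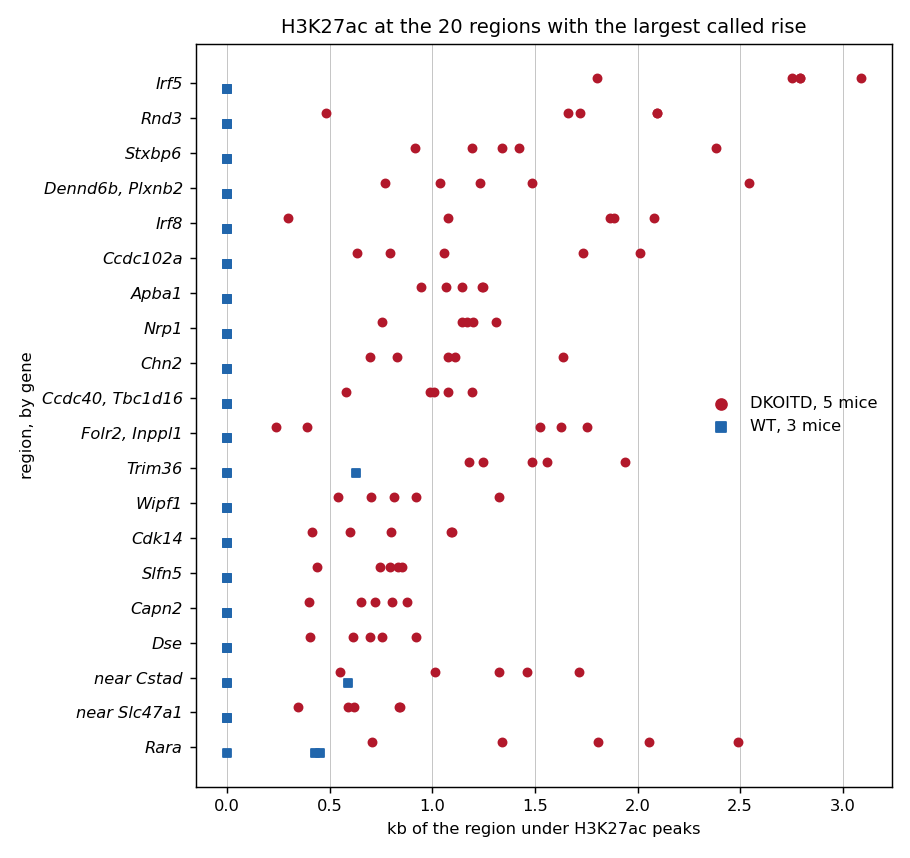
Kilobases of H3K27ac in each mouse at the 20 regions with the largest called differences, largest at the top, DKOITD mice as red circles and WT mice as blue squares. DKOITD points lie to the right of WT points in every row but that of the region near Cstad, and WT mice are at 0 in most rows; Irf5 is the farthest right.

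Of the 12 longest regions, 9 had H3K27ac in at least 1 mouse, and 1 was called higher. The longest, at Prss16 (8583 bp), had H3K27ac in DKOITD185 (0.489 kb) and in WT2 (0.602 kb). Rcor2 (4868 bp), a partner of REST-type repressor complexes, had none in any mouse. Those at Clcf1, Zfp36l1 and Hmgn1 had H3K27ac in at least 4 DKOITD and all 3 WT mice and were not called. The called region, of 5832 bp, lies 177652 bp from its nearest gene, Mkln1, and its H3K27ac was 3.84, 3.73, 3.22, 3.24 and 4.24 kb in DKOITD48, DKOITD52, DKOITD53e, DKOITD83 and DKOITD185, against 1.04, 0.582 and 2.16 kb in the WT mice (limma adjusted p = 0.0143, or 0.0584 without WT1).

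H3K27ac was present in all 8 mice at 27 of the 333 regions (8.11%), against 0.519% of all regions and 1.62% of the 4387 that all WT mice held. At Zfp36l1, an mRNA decay factor whose window is shared with Gm52006, DKOITD mice averaged 3.89 kb ± 0.694 and WT mice 3.90 kb ± 0.362 (SD, n = 5 and 3), although H3K27me3 covered 100% of the region in DKOITD52, 0% in the other 4 DKOITD mice, and 48.8% to 69.6% in the WT mice. Loss of the H3K27me3 peak in most DKOITD mice was thus not always accompanied by a wider H3K27ac peak.

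No region was called lower. The smallest p on that side belonged to Rab4a, a gene of endosome recycling, with 0 kb in all 5 DKOITD mice and 0.238, 0 and 0.335 kb in WT1, WT2 and WT3 (limma adjusted p = 0.108). Without WT2 it was called lower (adjusted p = 0.000632), and without WT3 the region in Osbpl1a was (0.0146).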

How the data were processed

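The authors deposited 1 broad peak list per library. Per the submitters' processing notes reads were aligned with Bowtie2 2.2.5 to mm10, and per the file headers peaks were called with MACS2 2.0.10 in paired-end broad mode at a q cutoff of 0.05, WT libraries against the input of WT1 and DKOITD libraries against that of DKOITD48. The deposited lists give, per the file headers, a pileup signal for every peak, a fold enrichment ratio over background and a −log10 q. Drosophila chromatin was added but, per the labels, not used, so no list gives an absolute level. The headers of H3K27ac WT1 and DKOITD53e name a single run and the others merged runs. The 8 human lists were not used.

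Peaks of each library were merged, then joined over the 8 H3K27me3 libraries on 19 autosomes. H3K27ac (at least 200 bp of a region, or 10% of a shorter one) was compared by limma 3.58.1 in R 4.3.3 (trend), DKOITD minus WT, on regions with 200 bp in at least 1 mouse, adjusted p under 0.05. On simulated data for this comparison 76 of 100 changes of 2 and 100 of 100 of 4 (log2) were called, with 6 of 1449 unchanged regions. The simulated noise had no floor at 0 bp. These rates therefore do not cover the 23 called regions without H3K27ac in any WT mouse. Two-sided exact permutation over 56 assignments cannot go below 0.0357. Replicates are separate mice. Genes are 20661 protein-coding genes of the RefSeq GRCm38.p6 table, which gives no strand, so both gene ends were used and gene starts and promoter motifs were not analysed.

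The regions and gene lists were chosen with earlier results of these data known. Regions named are the 12 longest, the 12 largest called rises, the 5 smallest p on the lower side, those at listed genes, and those nearest the limit. A region takes the names of genes it touches, otherwise the nearest gene. Further regions in the text and plots were chosen after their values were seen. A further gene list is not reported here.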

Additional observations from a re-analysis of the deposited data

Results flagged for a closer look

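In 7 of 42 sets of 5 DKOITD values, 1 mouse stood apart from the rest by Dixon's criterion (gap over range above 0.71). Chance gives about 1 in 20 for values without ties, a rate that does not apply at Cd40, Cacng6 and Prss16, where the other 4 values were 0. H3K27ac was found in DKOITD185 as the sole DKOITD mouse at Cd40 (0.505 kb) and at both regions near Prss16 (0.489 kb and 0.805 kb). At Cacng6 it was found in DKOITD48 as the sole mouse (0.224 kb). DKOITD53e was the lowest at Irf5 (1.80 kb) and at Rnd3 (0.482 kb), and DKOITD83 at Klf2 (1.15 kb). DKOITD185 had the most H3K27ac of the 5 DKOITD mice (23.4 Mb over the autosomes) and DKOITD53e and DKOITD83 the least (6.92 and 7.29 Mb). The part of this in the values was not tested.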

How the results depend on the processing

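The number of regions depended on the limits. It was 309 to 335 at a coverage minimum of 5% or 25% or with peaks within 500 bp merged, 209 at 50% (68 of them among the 333), 123 with no DKOITD mouse allowed or with DKOITD52 and DKOITD185 alone examined, 107 with equal numbers of peaks (10 of them among the 333), and 1 when −log10 q had to reach 5 (not among the 333). At 25%, 221 of 309 were among the 333. Leaving out 1 mouse gave 333 to 2413. H3K27ac was called higher at 30 to 42 regions with 1 mouse left out, at 52 without DKOITD48, DKOITD53e and DKOITD83 together, and at 20 when −log10 q had to reach 5, of which 9 were among the 37. Lower calls ranged from 0 to 1 with 1 mouse left out. The regions at Irf5, Klf4, Apba1, Ahnak and Pmaip1 were called higher in all settings run. The difference in the share with H3K27ac was 13.6 to 21.5 points over all settings and 14.6 to 18.99 with 1 mouse left out. The share at a gene end was 59.2% at the 25% minimum.

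Over the named regions and settings, 543 results kept direction and call, 35 lost the call, 16 gained it and 22 reversed. The reversals were at 6 regions that were not called. Clcf1 (−0.12) gave 0.025 with 1000 bp added, 0.0999 kb on the linear scale, 0.62 with strict H3K27ac peaks, 1.08 with equal numbers of peaks, 0.35 without 3 DKOITD mice, 0.41 without DKOITD53e and 0.04 without WT1. Zfp36l1 (−0.01) gave 0.0068 with flanks, 0.18 without 3 DKOITD mice, 0.04 without DKOITD53e, 0.04 without DKOITD83 and 0.06 without WT1. Map4k4 (−0.14) gave 0.0105 kb on the linear scale, 0.63 without 3 DKOITD mice, 0.09 without DKOITD53e, 0.04 without DKOITD83 and 0.03 without WT3. Prss16 (−0.31) gave 0.083 with flanks, 0.22 without 3 DKOITD mice and 0.36 without WT2. Mapk13 (−0.95) gave 0.19 without 3 DKOITD mice, and Rxra (0.48) −0.17 without WT3. With 1 mouse left out, values ranged from −0.36 to 0.41 at Clcf1, −0.10 to 0.058 at Zfp36l1, −0.37 to 0.088 at Map4k4, −0.67 to 0.36 at Prss16 and −0.17 to 1.15 at Rxra. The cause was not tested. No paired analysis was possible because DKOITD and WT mice share no replicate number. Gene starts alone were not run, and regions without any H3K27ac base could not be fitted in the setting without a filter. Depth limits weak peaks, and a mark can be present where no peak was called.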

Other observations

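The following 4 called regions lie at genes outside the lists, and they were picked with their values in view. Ahnak, a large scaffold protein gene, had 1.72, 2.43, 1.60, 1.77 and 2.16 kb of H3K27ac in DKOITD48, DKOITD52, DKOITD53e, DKOITD83 and DKOITD185, against 0.347, 0.346 and 0.295 kb in WT1, WT2 and WT3 (limma adjusted p = 7.26e-05). Pmaip1, which encodes the pro-apoptotic protein NOXA, had 0.679 to 1.32 kb in DKOITD mice and 0.235 to 0.317 kb in WT mice (adjusted p = 0.00492). Rras2, a RAS-related GTPase gene, had 0.427 to 0.756 kb in DKOITD mice and 0 kb in WT mice (adjusted p = 0.000135). Wipf1, a regulator of actin assembly, had 0.541 to 1.33 kb in DKOITD mice and 0 kb in WT mice (adjusted p = 0.000267). Ahnak and Pmaip1 were called higher in all settings run, and Rras2 and Wipf1 were not.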
